A study of Homo sapiens with 10 samples.

Results

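NF-kB is a family of dimeric transcription factors, and the genes described here are its 5 subunits (NFKB1, NFKB2, RELA, RELB and REL), 4 inhibitors (NFKBIA, NFKBIB, NFKBIE and TNFAIP3) and the tumour necrosis factor-induced gene TNFAIP2. They were taken by gene symbol from the deposited expression table, where each of the 10 names had exactly 1 of the 13527 rows. The table compares DU145 cells carrying a short hairpin RNA against SOX4 (shSOX4, genotype given as SOX4 knockdown, 3 libraries) with DU145 cells carrying a scramble control hairpin (shCon, 3 libraries). DU145 is an established human prostate cancer cell line, and no drug was given to either group. The labels do not say whether each hairpin line was 1 clone or a pool of transduced cells, nor whether a group's 3 libraries are from different cultures. The p-values therefore cover only the spread among the libraries at hand, and that spread may be technical. The remaining 4 samples, chromatin accessibility libraries of DU145 with SOX4 overexpression or Vector, were not analysed here.

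In resting cells NF-kB dimers are held in the cytoplasm by IkB proteins, encoded by NFKBIA (IkB alpha), NFKBIB (IkB beta) and NFKBIE (IkB epsilon). Signals from tumour necrosis factor, interleukin-1 or bacterial products switch on the IkB kinase complex, the IkB proteins are destroyed, and the freed dimers enter the nucleus. Several target genes act back on the pathway: NFKBIA and NFKBIE supply new IkB, and TNFAIP3 encodes A20, a ubiquitin-editing enzyme that shuts off signalling upstream of the kinase. NFKB1 and NFKB2 encode the precursors p105 and p100, which themselves hold other subunits until they are processed to p50 and p52.

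The promoters of the genes that fell furthest, and of REL, the member with a rise, are shown because NF-kB genes are textbook targets of NF-kB itself. Sequences are the 250 bases before the start of transcription in RefSeq, build GRCh38.p14, 5′ to 3′ on the gene's strand, with matches to the 10-letter kB consensus on either strand in capitals.
NFKBIA (chr14:35404750-35404999, minus strand): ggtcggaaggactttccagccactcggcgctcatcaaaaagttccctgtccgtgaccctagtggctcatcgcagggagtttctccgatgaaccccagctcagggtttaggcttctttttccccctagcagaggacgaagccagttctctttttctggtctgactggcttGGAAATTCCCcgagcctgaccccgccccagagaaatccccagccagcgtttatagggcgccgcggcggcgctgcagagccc
TNFAIP3 (chr6:137867009-137867258, plus strand): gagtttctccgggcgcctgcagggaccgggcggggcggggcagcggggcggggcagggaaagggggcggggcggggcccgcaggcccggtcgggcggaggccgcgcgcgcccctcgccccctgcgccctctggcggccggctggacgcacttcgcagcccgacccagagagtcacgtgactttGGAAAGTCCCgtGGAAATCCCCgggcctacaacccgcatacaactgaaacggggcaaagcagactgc
TNFAIP2 (chr14:103123211-103123460, plus strand): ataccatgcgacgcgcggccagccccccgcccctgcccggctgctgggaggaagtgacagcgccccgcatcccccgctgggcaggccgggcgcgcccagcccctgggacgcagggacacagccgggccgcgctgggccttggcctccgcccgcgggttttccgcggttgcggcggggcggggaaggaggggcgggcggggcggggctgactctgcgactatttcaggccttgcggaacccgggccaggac
REL (chr2:60881324-60881573, plus strand): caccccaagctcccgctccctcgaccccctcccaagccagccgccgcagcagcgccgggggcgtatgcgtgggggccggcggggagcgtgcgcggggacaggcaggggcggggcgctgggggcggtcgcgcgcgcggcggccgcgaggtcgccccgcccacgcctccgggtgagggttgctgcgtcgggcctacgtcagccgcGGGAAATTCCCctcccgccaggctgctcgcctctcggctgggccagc

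The consensus matched once in the NFKBIA window, 81 to 72 bases before the start, and at 2 separate places in the TNFAIP3 window, while the TNFAIP2 window held no match. In REL an 11-base run ending 37 bases before the start matched on both strands, so its 2 matches overlap. The table of promoters covered 8 of the 10 genes, and 6 of these 8 had a match before at least 1 of their starts, against 11.8% of all 27305 genes. Counted by window, 7 of the 13 windows of these genes had a match, against 9.96% of all 35116 windows of the same length. A gene with more starts has more windows in which a match can fall. RELA and TNFAIP2 had none, and RELB and NFKBIE were not in the table. The matches in the remaining genes, each with 5 flanking bases, lay as follows.
NFKB1 (chr4:102501305-102501324): tcagtGGGAATTTCCagcca
NFKB2, start 2 (chr10:102394466-102394486): gtcatGGGAATTCCCCcctcc
NFKB2, start 2 (chr10:102394495-102394514): gagaaGGGGCTTTCCcggcc
NFKB2, start 3 (chr10:102395524-102395543): ccaccGGGGCTTCCCggatt
NFKB2, start 3 (chr10:102395679-102395698): ttttcGGGACTTTCCtaagc
NFKBIB (chr19:38899936-38899956): tggtgGGGAATTTCCCgcagg
Of the genes called lower in shSOX4 below, NFKBIA and TNFAIP3 carry such a run, TNFAIP2 does not, and RELB and NFKBIE could not be looked at. REL, which was called higher, carries such a run too. Among the genes that did not pass, NFKB1, NFKB2 and NFKBIB carry it and RELA does not. A match describes the letters only and is no evidence of binding in these cells. The lack of a match covers only these 250 bases and this consensus.

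Library totals were 31189910 to 34784541 counts in shSOX4 and 36360205 to 43361609 in shCon, so depth differed with the group. SOX4, the targeted gene, averaged 5.67 ± 0.992 CPM (counts scaled to library size by the TMM method) in shSOX4 and 10.5 ± 2.26 CPM in shCon (SD, n = 3 each), so that it fell by 0.89 in log2 terms (standard error 0.236, adjusted p = 0.0111, edgeR). Without shCon 1 it was -0.71 and did not pass (adjusted p = 0.0598, edgeR). The second principal component of log2 CPM, with 15.7% of the variance, set shSOX4 1 (35.7) and shCon 3 (29.3) apart from the other libraries (-21.1 to -7.58). Of 6 epithelial markers, the keratins KRT8 and KRT18 rose, the adhesion genes CDH1 and EPCAM fell, KRT19 did not pass and KRT5 was not analysed here. Of 6 fibroblast markers 3 had a row (LUM, PDGFRB and COL1A1), with a summed level of 9.55 to 16.0 CPM in shSOX4 and 1.69 to 2.48 CPM in shCon. Of 5 endothelial markers only CDH5 had a row (4.7 to 6.62 CPM in shSOX4, 0.525 to 0.942 CPM in shCon), and of 8 leukocyte markers only CD68 and CD14 (summed 46.3 to 56.5 CPM in shSOX4, 97.4 to 116 CPM in shCon). The part of these markers in the results below was not tested.

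Most inhibitor transcripts were lower in shSOX4 and most subunit transcripts did not pass the test, a difference between the groups of genes that was itself not tested. Across the 10 genes 5 fell and 1 rose at an adjusted p under 0.05, in a comparison where 15.8% of all features fell and 17.0% rose (32.8% called in all). TNFAIP3, TNFAIP2 and NFKBIA lay at or below -1 on the log2 scale, where 5.27% of all features lay and were called. NFKBIA, at -1.0, sits on that cut and NFKBIE, at -0.93, lies just outside it, so which genes it holds depends on where it was set. Among the inhibitors 3 of 4 fell (NFKBIA, NFKBIE and TNFAIP3) and none rose, with a median log2 fold change of -0.96. Among the subunits 1 of 5 fell (RELB) and 1 rose (REL), with a median of -0.41, beside a median of -0.01 over all features. All 10 genes had at least 1 CPM in each of the 6 libraries, so none passed the table's level filter through 1 group alone. The groups did not overlap for 8 of the 10 genes, 7 lower and 1 higher, beside 47.0% of all features (23.9% lower, 23.1% higher).

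**Figure D1:**
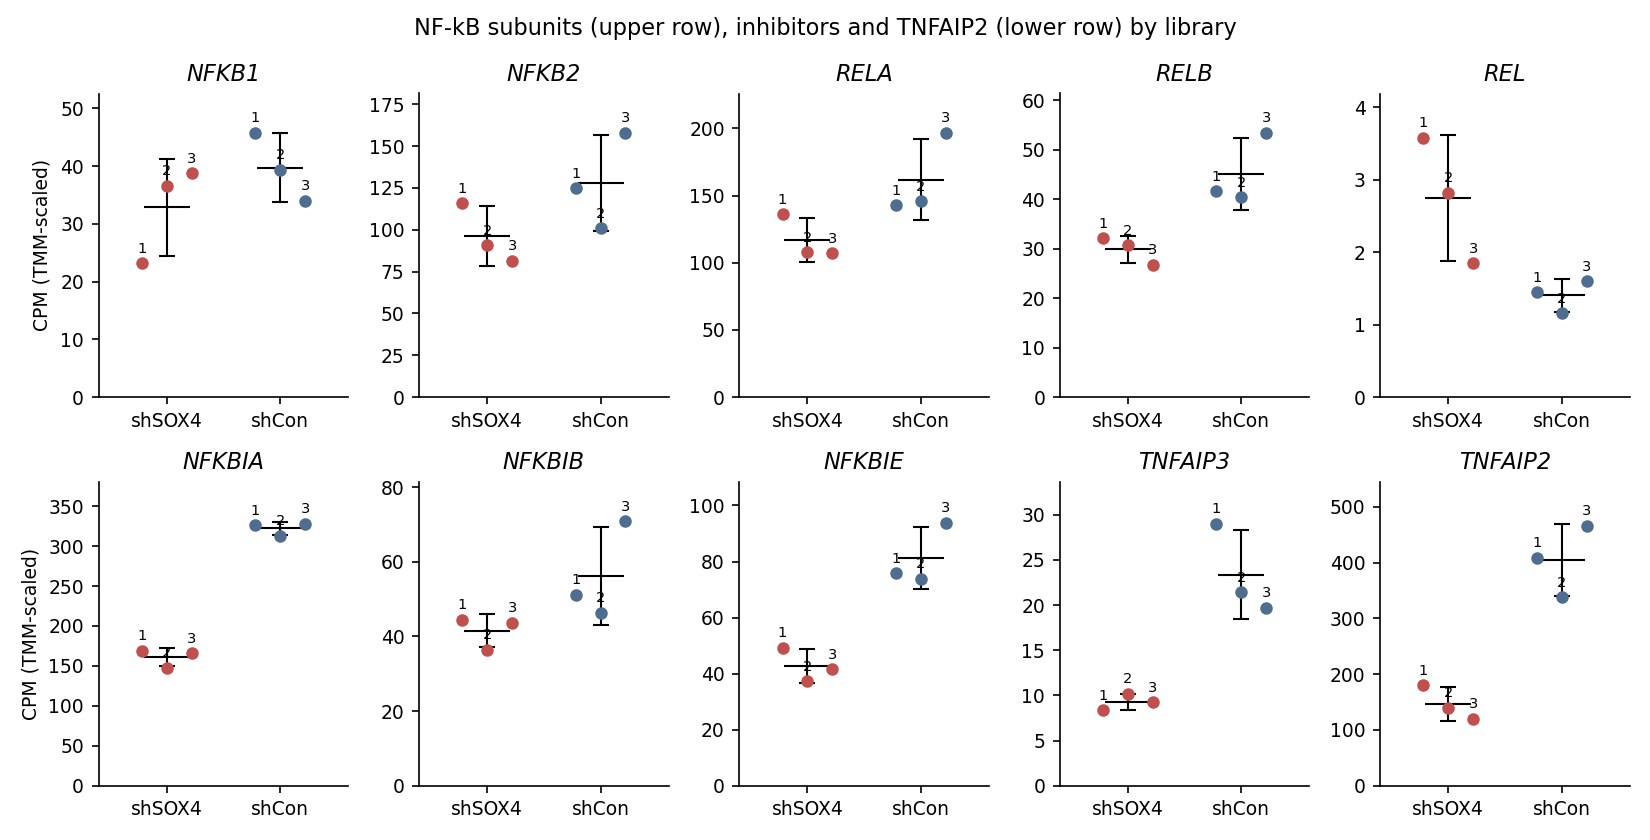
TMM-scaled CPM (vertical axes, from 0) of the 10 genes in the 3 shSOX4 libraries (red, left) and the 3 shCon libraries (blue, right). Points are libraries with their replicate numbers, horizontal bars are means and whiskers are SD; the 2 groups of NFKBIA lie at 148 to 169 and 313 to 328 CPM, while those of NFKB1 and NFKB2 overlap.

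NFKBIA (ENSG00000100906), the gene for IkB alpha, had 169, 148 and 166 CPM in shSOX4 1, 2 and 3, against 326, 313 and 328 CPM in shCon 1, 2 and 3. The libraries of each group lay close together and the groups were far apart. The mean was 161 ± 11.1 CPM in shSOX4 and 322 ± 8.37 CPM in shCon (SD, n = 3 each), giving a log2 fold change of -1.0 (standard error 0.149, 95% interval -1.32 to -0.68, adjusted p = 0.000252, edgeR). In all 14 alternative settings and library subsets it fell by between 0.94 and 1.02 on the log2 scale and passed the threshold. The no filter setting among the 14 repeats the reported fit, here and below.

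TNFAIP3 (ENSG00000118503), the gene for A20, had 8.39, 10.2 and 9.23 CPM in shSOX4 1, 2 and 3, against 29.0, 21.4 and 19.7 CPM in shCon 1, 2 and 3. Every shSOX4 library was below every shCon library, and shCon 1 stood highest. The level in shSOX4 was 39.7% of that in shCon, a log2 fold change of -1.33 (standard error 0.209, 95% interval -1.78 to -0.88, adjusted p = 0.00039, edgeR). The value ran from -1.44 to -0.94 over the alternatives, all of them past the threshold, with the smallest from limma on log2(FPKM + 1).

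NFKBIE (ENSG00000146232), the gene for IkB epsilon, had 49.2, 37.2 and 41.6 CPM in shSOX4 1, 2 and 3, against 75.9, 73.8 and 93.9 CPM in shCon 1, 2 and 3. The groups did not overlap, and the highest library of each was shSOX4 1 and shCon 3. It fell by 0.93 on the log2 scale (standard error 0.18, 95% interval -1.31 to -0.54, adjusted p = 0.00178, edgeR), and the call held in all 14 alternatives.

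NFKBIB (ENSG00000104825), the gene for IkB beta, differed from the other 3 inhibitors in not passing the test, although that difference between genes was not tested. It had 44.5, 36.4 and 43.7 CPM in shSOX4 1, 2 and 3, against 51.2, 46.3 and 70.9 CPM in shCon 1, 2 and 3. Its groups did not overlap either, but shCon 1 and 2 were close to the shSOX4 libraries and shCon 3 was well above. The log2 fold change was -0.43 (standard error 0.196, 95% interval -0.85 to -0.01, adjusted p = 0.102, edgeR), and none of the 14 alternatives called it. Without shCon 3 it was -0.23 (adjusted p = 0.338, edgeR).

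**Figure D2:**
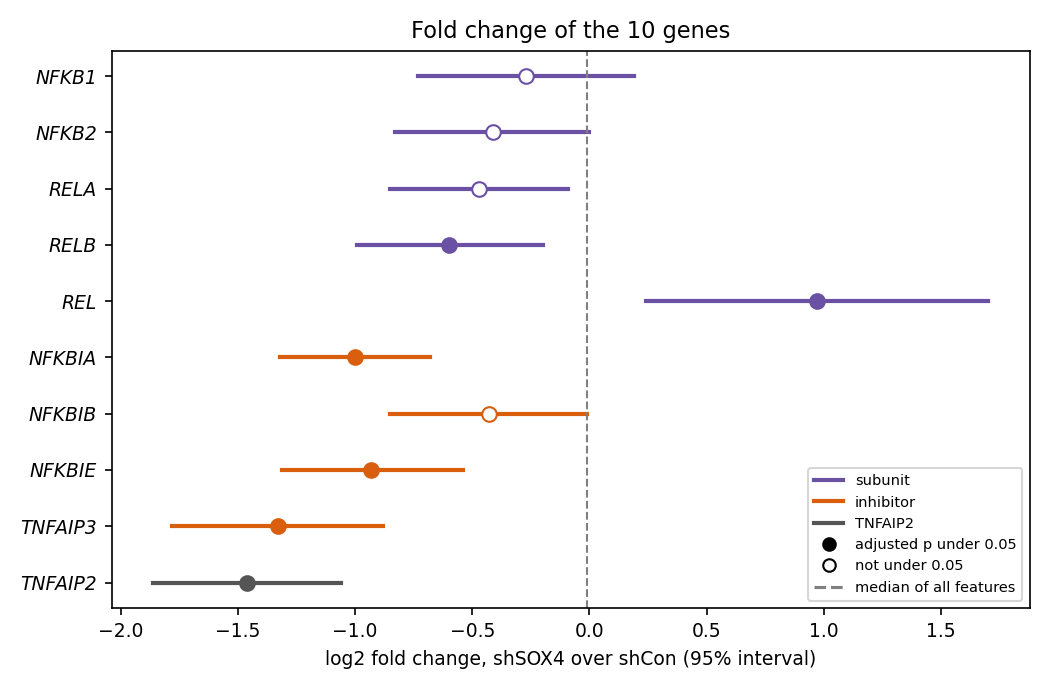
Log2 fold change of shSOX4 over shCon (horizontal axis) with its 95% interval from the edgeR fit, for subunits (purple), inhibitors (orange) and TNFAIP2 (grey); filled points have an adjusted p under 0.05 and the dashed line is the median of all features, -0.01. NFKBIA, NFKBIE, TNFAIP3 and TNFAIP2 lie between -1.46 and -0.93, the subunits other than REL between -0.60 and -0.27.

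TNFAIP2 (ENSG00000185215) encodes a protein related to an exocyst subunit and is induced by tumour necrosis factor. It was not grouped with the inhibitors here. It had 180.1, 139.6 and 120.4 CPM in shSOX4 1, 2 and 3, against 409, 338 and 466 CPM in shCon 1, 2 and 3. The highest shSOX4 library was still well below the lowest shCon library. Of the 10 genes it had the largest fold change, -1.46 on the log2 scale (standard error 0.187, 95% interval -1.86 to -1.06, adjusted p = 6.64e-05, edgeR), and 36.3% of the shCon level was left. Over the alternatives the value ran from -1.63 to -1.33 and always passed. In bulk RNA a lower level in each cell and fewer cells with the transcript cannot be told apart, here and for the other genes.

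For the subunits other than NFKB1, whether the test was passed changed when single libraries were left out. For RELA, RELB and REL it also changed with the setting while all 6 libraries were kept. RELA (ENSG00000173039) encodes p65, the subunit that carries the activation domain of the most common dimer. It had 136, 108 and 107 CPM in shSOX4 1, 2 and 3, against 143, 146 and 197 CPM in shCon 1, 2 and 3. The groups did not overlap, with shSOX4 1 close to shCon 1 and shCon 3 set apart. The log2 fold change was -0.47 (standard error 0.177, 95% interval -0.85 to -0.09, adjusted p = 0.055, edgeR). It passed without shSOX4 1 (-0.58, adjusted p = 0.0238, edgeR), without shCon 1 (-0.55, adjusted p = 0.0492, edgeR) and without shSOX4 1 and shCon 3 together (-0.42, adjusted p = 0.0159, edgeR), and in 7 of 14 alternatives in all. With all 6 libraries it passed with DESeq2 (adjusted p = 0.0479), limma on log2(FPKM + 1), total-count scaling and the stricter CPM filter. It did not pass with RLE scaling (adjusted p = 0.0654, edgeR) or a replicate block (adjusted p = 0.134, edgeR). Without shCon 3 alone it was -0.30 (adjusted p = 0.173, edgeR), and it also did not pass without shSOX4 2, shSOX4 3 or shCon 2.

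RELB (ENSG00000104856), the partner of p52 in the non-canonical branch, had 32.1, 30.7 and 26.8 CPM in shSOX4 1, 2 and 3, against 41.6, 40.4 and 53.5 CPM in shCon 1, 2 and 3. All shSOX4 libraries were lower than all shCon libraries. It fell by 0.60 on the log2 scale (standard error 0.184, 95% interval -0.99 to -0.20, adjusted p = 0.0236, edgeR). The call was lost without shSOX4 2 (adjusted p = 0.0773, edgeR), without shSOX4 3 (adjusted p = 0.0952, edgeR) and without shCon 3 (adjusted p = 0.0572, edgeR), where the value was -0.46.

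NFKB2 (ENSG00000077150), the gene for p100 and p52, had 116, 90.7 and 81.6 CPM in shSOX4 1, 2 and 3, against 125, 101 and 158 CPM in shCon 1, 2 and 3. The groups overlapped, since shSOX4 1 exceeded shCon 2. The log2 fold change of -0.41 did not pass (standard error 0.195, 95% interval -0.83 to 0.00, adjusted p = 0.117, edgeR), except without shSOX4 1 (-0.56, adjusted p = 0.0334, edgeR) and without shSOX4 1 and shCon 3 together (-0.39, adjusted p = 0.0414, edgeR). Without shCon 3 alone it was -0.23 (adjusted p = 0.353, edgeR).

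NFKB1 (ENSG00000109320), the gene for p105 and p50, had 23.2, 36.6 and 38.8 CPM in shSOX4 1, 2 and 3, against 45.8, 39.4 and 34.0 CPM in shCon 1, 2 and 3. It was lowest in shSOX4 1, and the other 2 shSOX4 libraries fell within the range of shCon. The log2 fold change was -0.27 (standard error 0.215, 95% interval -0.73 to 0.19, adjusted p = 0.342, edgeR), and no alternative called it. It was -0.07 without shSOX4 1 (adjusted p = 0.827, edgeR) and -0.16 without shCon 1, and reached -0.40 without shSOX4 3.

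REL (ENSG00000162924) encodes c-Rel, the subunit known best from lymphocytes, and was the member with the lowest level. It had 3.58, 2.82 and 1.85 CPM in shSOX4 1, 2 and 3, against 1.45, 1.16 and 1.6 CPM in shCon 1, 2 and 3. The groups did not overlap, but shSOX4 3 was only just above shCon 3, and these values rest on 62 to 122 counts a library in shSOX4 and 43 to 66 in shCon. It rose by 0.97 on the log2 scale (standard error 0.342, 95% interval 0.24 to 1.70, adjusted p = 0.0421, edgeR). That call did not hold without shSOX4 1 (0.74, adjusted p = 0.138, edgeR), shSOX4 2 (adjusted p = 0.107, edgeR), shCon 1 (adjusted p = 0.0804, edgeR), shCon 2 (adjusted p = 0.128, edgeR) or shCon 3 (adjusted p = 0.0517, edgeR). Without shSOX4 1 and shCon 3 together it was 0.84 (adjusted p = 0.105, edgeR).

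**Figure D3:**
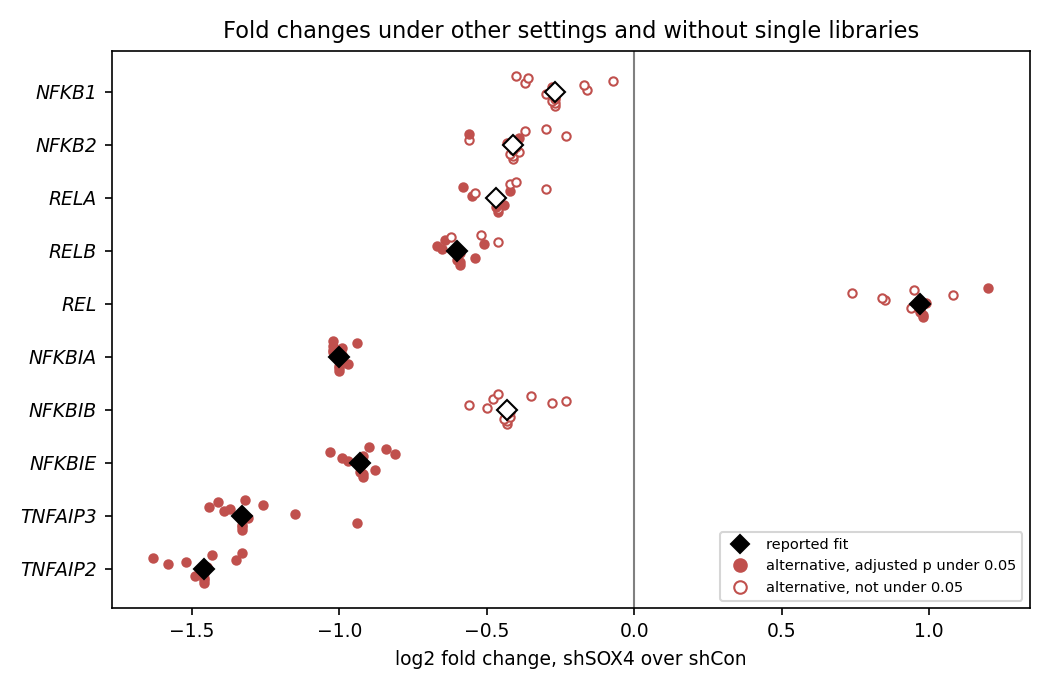
Log2 fold change of shSOX4 over shCon (horizontal axis) of each gene in the reported edgeR fit (black diamonds) and in the alternatives (circles), which are other scalings, filters, tools and subsets of libraries; filled symbols have an adjusted p under 0.05. NFKBIA, NFKBIE, TNFAIP3 and TNFAIP2 are filled throughout, NFKB1 and NFKBIB never, and the other 4 genes change with the setting.

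Both libraries that principal component analysis set apart ran high across the genes. shSOX4 1 was the highest shSOX4 library for 8 of the 10 genes and shCon 3 the highest shCon library for the same number, NFKB1 and TNFAIP3 being the exceptions in both groups. How often these libraries were highest over all features was not counted. Without these 2 libraries, which leaves 2 in each group, NFKBIA, NFKBIE, TNFAIP3 and TNFAIP2 were still called, and so were RELA, RELB and NFKB2. In that fit 7 of the 10 genes fell and none rose, and 40.9% of all features were called (19.5% lower, 21.4% higher). The 2 libraries were left out because they stood apart in these same data, so the calls gained without them are not added evidence.

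The share of all features called moved with the setting, and the counts of genes given without a library or under another tool are to be read beside it. Without shSOX4 1 it was 36.7% (19.6% higher, 17.1% lower), without shSOX4 2 18.5% (10.4% higher, 8.12% lower) and without shSOX4 3 21.9% (12.4% higher, 9.53% lower). Without shCon 1 it was 27.2% (14.7% higher, 12.4% lower), without shCon 2 25.5% (13.3% higher, 12.2% lower) and without shCon 3 28.9% (15.3% higher, 13.6% lower). DESeq2 called 37.0% (19.2% higher, 17.8% lower), limma on FPKM 29.7% (13.8% higher, 15.9% lower), and edgeR with a replicate block 24.9% (13.5% higher, 11.5% lower). RLE scaling gave 32.5% (17.2% higher, 15.4% lower), total-count scaling 30.3% (15.0% higher, 15.3% lower), and the stricter CPM filter 34.6% (17.8% higher, 16.9% lower).

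FPKM values, scaled by the authors to gene length, allow levels to be set side by side between genes. In shCon the order was NFKBIA (194 ± 8.97 FPKM, SD, n = 3), TNFAIP2 (95.4 ± 10.4), RELA (53.7 ± 6.57), NFKB2 (37.8 ± 7.19), NFKBIB (31.3 ± 5.57), NFKBIE (29.2 ± 2.23), RELB (18.6 ± 2.00), NFKB1 (9.46 ± 2.01), TNFAIP3 (4.89 ± 1.34) and REL (0.114 ± 0.0154). In shCon the libraries of NFKB2 and NFKBIB overlapped, as did those of NFKBIB and NFKBIE, and all other neighbours in the order were separate. In shSOX4 NFKBIA was again first with 98.4 ± 5.17 FPKM, but RELA (39.4 ± 4.56) came before TNFAIP2 (33.7 ± 7.46), whose libraries overlapped. The FPKM ratio of shSOX4 to shCon means was 0.506 for NFKBIA, 0.528 for NFKBIE, 0.415 for TNFAIP3 and 1.99 for REL, close to the count-based values. REL, at under 1 FPKM in every library, is thus scarce beside the other subunits on a per-length scale.

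Because the IkB proteins bind the subunits, the transcript ratio of inhibitor to subunit within a library is given as a description, with no test. The NFKBIA to RELA ratio of FPKM was 2.33, 2.44 and 2.76 in shSOX4 1, 2 and 3, against 4.07, 3.88 and 3.04 in shCon 1, 2 and 3. It was lower in each shSOX4 library than in any shCon library, although shSOX4 3 and shCon 3 were near each other. The NFKBIE to RELA ratio averaged 0.392 ± 0.0234 in shSOX4 and 0.547 ± 0.0275 in shCon (SD, n = 3 each), without overlap. The NFKBIB to RELA ratio was alike in the means, 0.585 ± 0.0722 in shSOX4 and 0.580 ± 0.0399 in shCon (SD, n = 3 each). For the 3 IkB genes summed over the 5 subunits summed, the ratio was 1.53, 1.42 and 1.72 in shSOX4 1, 2 and 3, against 2.23, 2.31 and 1.90 in shCon 1, 2 and 3. NFKBIA made up 0.72 ± 0.0115 of that IkB sum in shSOX4 and 0.763 ± 0.029 in shCon (SD, n = 3 each). The summed ratio therefore follows NFKBIA for the most part. NFKBIA to RELB was also without overlap (7.95 ± 0.89 in shSOX4, 10.5 ± 1.38 in shCon, SD, n = 3 each), but only just, with 8.89 in shSOX4 3 and 8.93 in shCon 3. NFKBIA to REL was without overlap too (467 ± 169 in shSOX4, 1720 ± 249 in shCon, SD, n = 3 each), with REL near the floor. NFKBIA to NFKB1, NFKBIA to NFKB2 and TNFAIP3 to RELA overlapped. NFKBIA and NFKBIE were themselves lower in shSOX4, so their ratios are not a separate result. How often ratios of other genes separate was not counted.

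**Figure D4:**
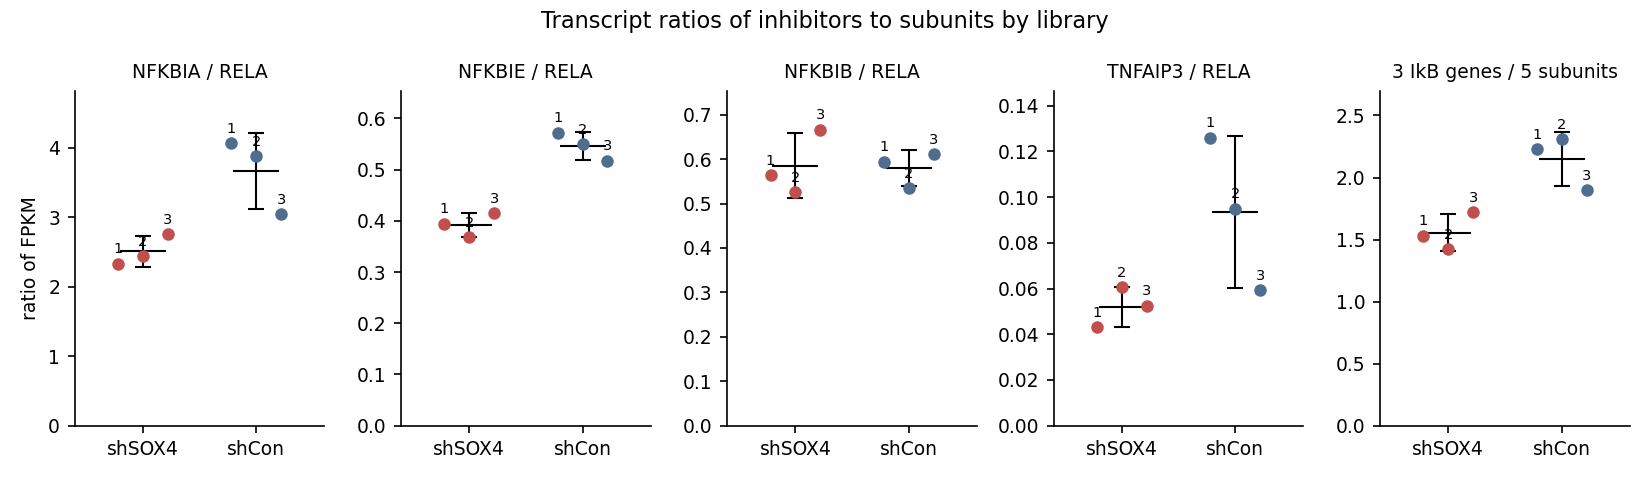
Ratios of FPKM within each library (vertical axes, from 0) in shSOX4 (red, left) and shCon (blue, right); points are libraries with their numbers, bars are means and whiskers are SD. NFKBIA to RELA, NFKBIE to RELA and the summed IkB to summed subunit ratio lie lower in shSOX4 without overlap, whereas NFKBIB to RELA overlaps.

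The genes whose profile over the 6 libraries was most like that of NFKBIA, by the smallest root mean square difference of centred log2 CPM among 9637 protein-coding genes, were RAB3D (0.0429), a small GTPase of vesicle traffic, VEGFA (0.0452), a growth factor for blood vessels, and MARS (0.0607), the methionyl-tRNA synthetase. VEGFA averaged 67.8 ± 5.06 CPM in shSOX4 and 137 ± 2.17 CPM in shCon (SD, n = 3 each). Among the members, NFKBIE came nearest (0.127, place 70 in that order) and REL was farthest (1.0). These distances include the difference between the groups.

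Other genes of the pathway are given from 6 lists with 83 genes, of which 72 had a row. Of these 11 rose (15.3%, beside 17.0% of all features) and 17 fell (23.6%, beside 15.8%), so the share that rose was near that of all features. Of the other IkB family genes 1 of 3 fell. BCL3, a nuclear IkB protein that binds p50 and p52, had 29.6, 20.9 and 16.6 CPM in shSOX4 1, 2 and 3, against 48.0, 37.1 and 70.2 CPM in shCon 1, 2 and 3, and fell by 1.21 on the log2 scale (standard error 0.256, adjusted p = 0.0031, edgeR). NFKBIZ (-0.62) and NFKBID (-0.59) did not pass. Without shSOX4 1 and shCon 3 together NFKBIZ fell too (-0.87, adjusted p = 0.049, edgeR).

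Of 16 kinases and their scaffolds 5 rose and none fell, beside 17.0% and 15.8% of all features. The median log2 fold change was 0.28. TANK, which binds TBK1 and TRAF proteins, rose by 1.28 (8.13 ± 1.53 CPM in shSOX4, 3.34 ± 0.663 CPM in shCon; SD, n = 3 each; adjusted p = 0.00196, edgeR), and the kinase TBK1 itself rose by 1.07. MAP3K8, a kinase held by p105, rose by 1.01, TAB2, a ubiquitin-binding partner of TAK1, by 0.69 and RIPK1, a kinase of the tumour necrosis factor receptor complex, by 0.64. The calls of MAP3K8 and TAB2 were lost without shSOX4 2, shSOX4 3 or shCon 2, and that of RIPK1 was lost when any 1 library but shSOX4 1 was left out. The 3 genes of the IkB kinase complex, chosen after their values were seen, did not pass: CHUK gave 0.28, IKBKG -0.31 and IKBKB -0.41 (adjusted p = 0.0889, edgeR), with no overlap between the groups for IKBKG and IKBKB. The number that rose was 2 without shSOX4 2, without shSOX4 3 or without shCon 2, and RIPK2, a kinase of the NOD receptors that was chosen after its values were seen and gave -0.68 with all libraries, fell without shSOX4 3 (-0.86) or without shCon 3 (-0.88).

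Of 14 adaptors and ubiquitin ligases 2 rose and 4 fell, beside 17.0% and 15.8% of all features, with a median of -0.26. The 2 rises were BIRC2 and BIRC3, which encode cIAP1 and cIAP2, ubiquitin ligases that carry RIPK1 signalling in the canonical branch and mark the kinase NIK for destruction in the non-canonical one. BIRC2 had 26.8, 33.1 and 29.2 CPM in shSOX4 1, 2 and 3, against 9.0, 6.4 and 5.36 CPM in shCon 1, 2 and 3. The groups were far apart, with a log2 fold change of 2.1 (standard error 0.225, adjusted p = 1.23e-05, edgeR). BIRC3 had 14.5, 17.3 and 10.2 CPM in shSOX4 1, 2 and 3, against 4.99, 4.73 and 3.06 CPM in shCon 1, 2 and 3, and rose by 1.71 (standard error 0.26, adjusted p = 0.0003, edgeR), or by 0.99 with limma on log2(FPKM + 1). MAP3K14, the gene for NIK, chosen after its value was seen, did not pass (0.27, adjusted p = 0.328, edgeR), but rose without shCon 3 (0.56, adjusted p = 0.0198, edgeR). Among those that fell were RBCK1, a part of the linear ubiquitin ligase (-0.96), TRADD, the adaptor of the tumour necrosis factor receptor (-0.99), and TRAF1 (-0.84). TRADD did not pass without shSOX4 2 or shSOX4 3, and TRAF1 not without shSOX4 3. Without shSOX4 2 the number that fell was 2 and without shSOX4 3 it was 1.

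Of 13 deubiquitinases and other brakes 4 rose and 2 fell (median -0.04), beside 17.0% and 15.8% of all features. The 2 falls were TNIP1 (205 ± 26.8 CPM in shSOX4, 354 ± 44.3 CPM in shCon; SD, n = 3 each; log2 -0.79, adjusted p = 0.00276, edgeR) and TNIP2 (-0.81), whose proteins bind A20. TAX1BP1, another partner of A20, rose by 0.89, as did NKRF, a repressor of NF-kB target genes, by 0.73 and the deubiquitinase gene CYLD by 0.73. NKRF did not pass without shSOX4 2, and CYLD not without shSOX4 2, shSOX4 3 or shCon 2. The number of rises was 1 without shSOX4 2 and 2 without shSOX4 3 or shCon 2. Of 8 measured receptors 2 fell and none rose (median -0.15), beside 15.8% and 17.0% of all features. CD40 had 15.9, 14.6 and 13.8 CPM in shSOX4 1, 2 and 3, against 29.3, 29.6 and 34.0 CPM in shCon 1, 2 and 3 (log2 -1.07, adjusted p = 0.000719, edgeR). TNFRSF1B fell by 0.82, a call lost without shSOX4 2, shSOX4 3 or shCon 3 (1 fall in the list each time). The 5 Toll-like receptor genes of the list were not analysed here.

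Of 24 genes on the target list 18 had a row. Of these 8 fell and none rose, beside 15.8% and 17.0% of all features, with a median of -0.51. The list holds no members, such as REL, which rose, or NFKBIA, which fell. It also leaves out genes of the other lists, such as BIRC3, which rose, and BCL3, which fell. IER3, an early response gene of cell survival, had 133, 93.7 and 101 CPM in shSOX4 1, 2 and 3, against 264, 218 and 251 CPM in shCon 1, 2 and 3 (log2 -1.16, adjusted p = 0.000279, edgeR). The cytokine gene IL6 fell by 0.97, the survival genes BCL2L1 and CFLAR by 0.67 and 0.66, and the adhesion receptor gene ICAM1 by 0.58. CFLAR did not pass without shSOX4 2, and ICAM1 not without shSOX4 2, shSOX4 3 or shCon 1. Leaving out single libraries lowered the count of falls to 3 without shSOX4 2, 4 without shSOX4 3, 4 without shCon 1 and 5 without shCon 2. CXCL8, the interleukin-8 gene, chosen after its values were seen, went the other way, with 107, 92.3 and 74.8 CPM in shSOX4 1, 2 and 3, against 75.4, 69.2 and 44.5 CPM in shCon 1, 2 and 3. Its groups overlapped and it did not pass (log2 0.54, adjusted p = 0.0636, edgeR), but it rose without shCon 1 (0.69, adjusted p = 0.0424, edgeR) and with DESeq2 (0.55, adjusted p = 0.0394), and was 0.34 without shCon 3. SOD2, a mitochondrial antioxidant enzyme gene also chosen after its values were seen, gave 0.23, between 0.08 without shCon 3 and 0.40 without shCon 1 when single libraries were left out, and rose with limma on log2(FPKM + 1) (0.84, adjusted p = 0.0181).

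**Figure D5:**
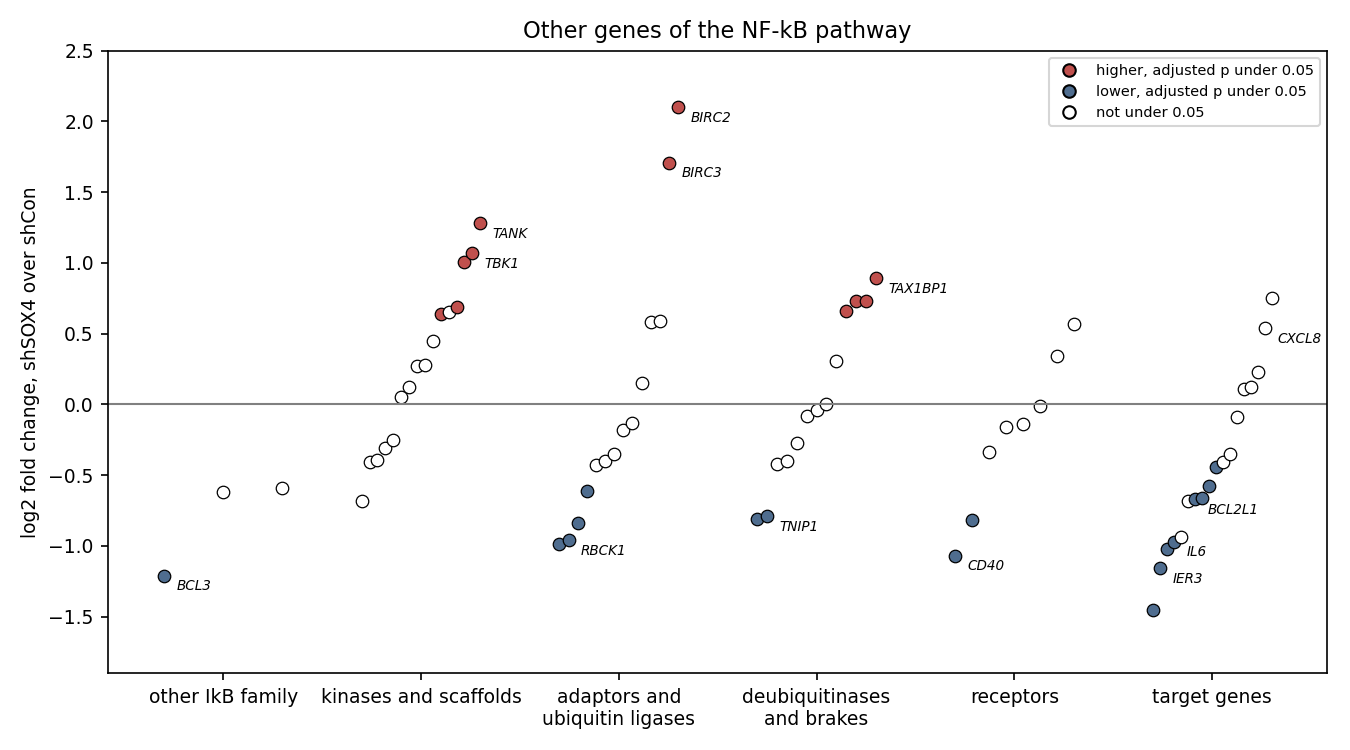
Log2 fold change of shSOX4 over shCon (vertical axis) of the measured genes of the 6 pathway lists (horizontal axis), each list ordered by value; red points rose and blue points fell at an adjusted p under 0.05, white points did not pass. BIRC2 and BIRC3 stand highest at 2.1 and 1.71. The genes of the target list that passed are all below 0, and those of the kinase list that passed are all above 0.

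All 10 genes had the same sign in the authors' deposited table, with log2 fold changes of -0.97 for NFKBIA, -1.26 for TNFAIP3, -0.89 for NFKBIE, -1.39 for TNFAIP2, -0.57 for RELB and 0.84 for REL, each with an adjusted p under 0.05. Those values rest on the same libraries, so the shared sign is no independent check. Their adjusted p-values lay close to those of the DESeq2 alternative, for REL 0.0265 from the authors and 0.0266 with DESeq2. The authors' deposited table also places RELA under that threshold (-0.44, adjusted p = 0.048), and NFKB1, NFKB2 and NFKBIB above it; it calls 37.0% of features. The count to FPKM ratio of a gene, relative to its mean over the libraries, stayed within 95.3 to 105% for 9 of the members and within 91.7 to 107% for TNFAIP3. In RefSeq's annotation NFKB1, RELA, TNFAIP3 and TNFAIP2 overlap long non-coding RNA genes and REL a small pseudogene, and since the sources used here do not give the strand setting of the counting, reads from these cannot be told apart.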

How the data were processed

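RNA-seq of 6 DU145 libraries (3 shSOX4, 3 shCon) was read from 1 deposited table, whose SH and NC columns were taken as shSOX4 and shCon with the numbers of the sample titles. Its count columns hold raw whole-number counts by gene, per the file headers, and its FPKM columns were already scaled for length and depth by the authors. The authors' log2 fold change and adjusted p-value columns name no tool. The submitters' processing notes list build hg19 and, with no roles, deepTools 2.07, MACS2 2.1.1, Bowtie2, STAR and HISAT2. The sources used here do not give the counting program, annotation or strand setting. Each feature has at least 1 CPM in at least 3 libraries, so the table holds no lower genes.

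All 13527 features were fitted with edgeR 4.0.16 (R 4.3.3; TMM, filterByExpr, two-sided quasi-likelihood F test, group as the single term), with Benjamini-Hochberg adjustment over all of them and a threshold of 0.05. The filter removed 0 features, so the no filter alternative below repeats the reported fit and could not differ from it. The fit was tested on simulated data. Alternatives were RLE scaling, total-count scaling, no filter, a stricter filter (1 CPM or more in each library of 1 group), DESeq2 1.42.0, limma 3.58.1 (log2(FPKM + 1), mean FPKM 1 or more), a replicate block, and omitted libraries. Members and lists were chosen with earlier results of these data known. Named pathway genes are at most 5 a list, smallest adjusted p first among those called, and the 3 nearest to NFKBIA with a mean of at least 5 CPM; others are said to be chosen after their values were seen. No list was tested as a set. Gene IDs matched current symbols for 12386 of 12411 features not named newGene.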

Additional observations from a re-analysis of the deposited data

How the results depend on the processing

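Direction was kept by all 35 genes followed by name in each of the 14 alternatives where it could be fitted. Of 489 pairs of gene and alternative 43 lost a call and 12 gained one. The pairs of the no filter alternative repeat the reported fit and could not differ. The inhibitors called lower stayed at 3 of 4 throughout, and their median log2 fold change ran from -1.03 to -0.89, that of the subunits from -0.56 to -0.30. Counts of subunits are small and move easily. The number that fell was 2 with DESeq2, total-count scaling, limma on log2(FPKM + 1) or the stricter CPM filter, 3 without shCon 3 and shSOX4 1 together, and 0 to 3 without single libraries. The number of subunits, and so of members, that rose was 0 with limma on log2(FPKM + 1), where REL was not tested, 0 without shCon 3 and shSOX4 1 together, and 0 to 1 without single libraries. Of the kinases, 3 rose with limma on log2(FPKM + 1) and 1 fell with DESeq2, under the stricter CPM filter and without shCon 3 and shSOX4 1 together; without single libraries 2 to 5 rose and 0 to 1 fell. Of the brakes 2 rose with limma on log2(FPKM + 1), and 1 to 4 without single libraries. Of the target genes 1 rose with DESeq2 (CXCL8) and 1 with limma (SOD2), 11 fell without shCon 3 and shSOX4 1 together, and without single libraries 0 to 1 rose and 3 to 9 fell. Of the adaptors 1 to 4 fell, and of the receptors 1 to 2, without single libraries; 2 of the other IkB family genes fell without shCon 3 and shSOX4 1 together. Features called over the whole table numbered 2509 to 4966 without single libraries (1411 to 2653 higher, 1098 to 2313 lower), against 4431 (2295 and 2136) with all 6 and 5532 (2890 and 2642) without shCon 3 and shSOX4 1 together. SOX4 ran from -1.02 to -0.71 without single libraries, and -0.71 without shCon 1 did not pass. The cause of these changes was not tested.

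The labels do not say whether libraries with the same replicate number belong together. Same-numbered libraries correlated by -0.29, 0.159 and -0.293 in their deviations from the group means, and shSOX4 1 was nearest to shCon 3 (0.495). With 3 libraries a group these deviations constrain one another, so the correlations cannot decide whether the numbers pair the libraries. With the replicate number as a block 3374 features were called, and 0 subunits rose and 0 fell, 0 members rose, and 3 kinases rose. Depth limits REL most, with 43 to 122 counts a library.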
